A study of Sus scrofa with 12 samples.

Results

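Run-on transcripts are stretches of assembled RNA that lie beside an annotated gene without touching it. They were taken from the transcript lists assembled in each of 12 RNA-seq libraries of the longissimus dorsi (LD), the long muscle of the back, of purebred Iberian pigs. A transcript on an assembled chromosome was a member when it overlapped no gene or pseudogene span of the RefSeq annotation of the pig genome Sscrofa11.1 but lay within 2000 bases of one. Of the 433576 transcripts of the 12 libraries on chromosomes, 16943 met this rule, of which 11940 lay past the 3′ end of the nearest gene and 5003 before its 5′ end. Overlapping members of the same gene and side were merged over the libraries into 3208 regions past a 3′ end and 1291 regions before a 5′ end. These regions neighboured 3823 genes. A further 29582 transcripts overlapped no gene and lay farther than 2000 bases from every gene, and they served as the comparison class.

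All pigs were castrated males of 1 closed commercial population, fattened free range on acorns and grass and slaughtered at about 17 months of age, and siblings had been excluded. The 6 pigs of the H group had the highest and the 6 pigs of the L group the lowest estimated breeding values for intramuscular fat (IMF). IMF was 11.9% ± 1.25 (SD, n = 6) in the H group, with a range of 10.62 to 13.8%, and 1.98% ± 0.262 (SD, n = 6) in the L group, with a range of 1.7 to 2.28%. These are the values of the sample labels, and for the L group their mean is not the one stated in the methods of the study. Breeding values ran from 2.78 to 3.48 in H and from -1.46 to -1.31 in L. Each pig gave 1 library of whole muscle. In such bulk samples, fewer cells of a type and less RNA per cell cannot be told apart.

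When RNA polymerase II reaches the end of a gene, the cleavage and polyadenylation machinery recognises a poly(A) signal in the nascent RNA, most often AAUAAA, cuts the RNA downstream of it and adds the poly(A) tail. The polymerase goes on past the cut before it is released, and RNA from this stretch is normally degraded. RNA past an annotated 3′ end can also belong to a longer 3′ UTR that the annotation lacks, to a readthrough transcript or to a separate gene. RNA before a 5′ end can come from an unannotated upstream exon, or from the other strand, since many promoters that are rich in CpG fire in both directions.

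The following stretches of the Sscrofa11.1 reference sequence show what the members look like. The first set holds the 30 bases around the letters of a poly(A) signal inside 4 of the regions past a 3′ end with the highest FPKM among those of at least 200 bases. AATAAA is in capitals, and each line reads 5′ to 3′ on the strand of the gene.
B2M, chr1:126864384-126864413, minus strand: aaaatctcaaatacacacAATAAAaaaatc
LOC100517285, chr6:59002354-59002383, plus strand: agtaccatatgaAATAAAcccaaggaggaa
C17H20orf196, chr17:14706758-14706787, plus strand: tgaatgtccatcAATAAAtgagtgtataaa
RFK, chr1:229329092-229329121, minus strand: ttcaggccttgaAATAAAtcttgaccaagt
The high regions past C7H6orf222, EBP and LOC110259339 held no AATAAA on the strand of the gene.

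The second set holds the whole gap between the start of a gene and the spliced transcripts that began before it, on the strand of the gene and with every CpG in capitals. These gaps are short and rich in G and C. The gap of CSPP1 was 77.3% G or C with 7 CpG and that of NARS 64.2% with 10.
CSPP1, chr4:67844338-67844412, minus strand: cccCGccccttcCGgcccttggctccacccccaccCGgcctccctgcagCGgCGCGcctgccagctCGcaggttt
NARS, chr1:106933106-106933242, minus strand: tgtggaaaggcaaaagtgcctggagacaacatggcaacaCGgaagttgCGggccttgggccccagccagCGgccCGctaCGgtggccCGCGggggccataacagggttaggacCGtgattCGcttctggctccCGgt

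The third set holds members that stood out by their level. The region before the 5′ end of GSTA4 was the highest single-exon region of at least 200 bases on that side and is shown on its own strand with GATC in capitals. The transcripts before the microRNA gene MIR206 ended 9 to 490 bases short of it, and the mature miR-206 is shown with its seed in capitals. The fragments beside MFAP5, LOC110261700 and HEPN1 were under 200 bases and carried the largest shares of coverage among the members. The longest run of T or A is in capitals in the fragments of MFAP5 and LOC110261700, and the fragment of HEPN1 has no such mark.
GSTA4, chr7:46656772-46657066, plus strand: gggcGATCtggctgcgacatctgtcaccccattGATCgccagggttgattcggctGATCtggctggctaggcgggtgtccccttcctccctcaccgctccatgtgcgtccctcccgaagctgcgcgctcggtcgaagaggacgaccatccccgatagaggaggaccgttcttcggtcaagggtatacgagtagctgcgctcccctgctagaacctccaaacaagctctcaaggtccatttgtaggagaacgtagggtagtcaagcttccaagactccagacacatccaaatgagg
miR-206, chr7:45976342-45976363, plus strand: tGGAATGTaaggaagtgtgtga
MFAP5, chr5:62759447-62759509, plus strand: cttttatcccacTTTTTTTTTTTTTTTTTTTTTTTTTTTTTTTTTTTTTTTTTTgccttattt
LOC110261700, chr7:557338-557396, plus strand: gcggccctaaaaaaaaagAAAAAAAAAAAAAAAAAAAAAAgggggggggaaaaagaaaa
HEPN1, chr9:52114113-52114236, plus strand: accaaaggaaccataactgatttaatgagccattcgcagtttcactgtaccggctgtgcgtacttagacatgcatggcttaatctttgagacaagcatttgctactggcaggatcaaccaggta

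The libraries held 30119 to 43938 transcripts on chromosomes, with a coverage of 9.76 to 17.5 gigabases. H4 held the most transcripts and L3 the fewest, and the counts of both groups are also given without them. Values are FPKM, fragments per kilobase of transcript in relation to the mapped fragments of the library, scaled between libraries by median ratios. A region that was not assembled in a library was set to 0 there. Coverage in the listed members is thin, with a median of 3.17 to 3.33 reads per base past 3′ ends.

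Run-on transcripts were more frequent past 3′ ends than before 5′ ends in 12 of 12 libraries. A library held 995 ± 141 (SD, n = 12) transcripts past a 3′ end and 416.9 ± 78.7 before a 5′ end, and the difference of 578.1 passed the test (two-sided exact sign-flip test, p = 0.000488, the smallest it can give with 12 libraries). The ratio of both counts ran from 2.19 to 2.95, with a median of 2.395. The range was 763 to 1284 transcripts past 3′ ends and 259 to 587 before 5′ ends, so that the sides did not overlap.

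**Figure D1:**
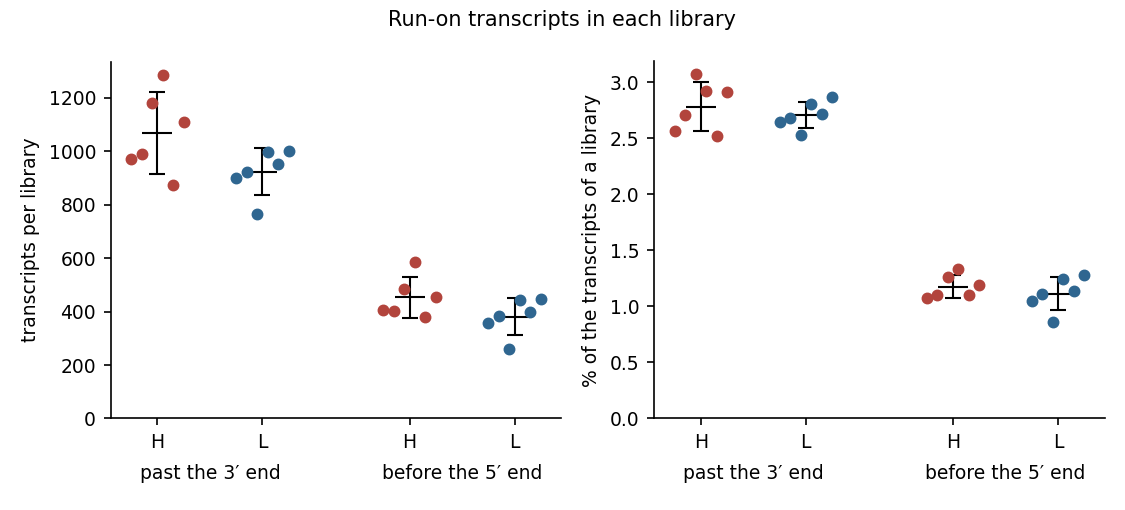
Number of run-on transcripts per library (left) and their share of all transcripts of the library in percent (right), past the 3′ end and before the 5′ end of a gene, for the 6 H and the 6 L libraries. Points are libraries, with the group mean and SD beside them. The counts past 3′ ends, 763 to 1284, all lie above those before 5′ ends, 259 to 587, and H and L overlap on both sides.

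Members were most frequent close to the gene and thinned out with distance in different ways on each side. Past 3′ ends, a library held 157 ± 27.3 (SD, n = 12) transcripts at 1 to 250 bases from the gene, 121.9 at 751 to 1000 bases and 96.3 at 1751 to 2000 bases. The count went on falling beyond the limit of the rule, to 35.6 at 4751 to 5000 bases. Before 5′ ends, the first 250 bases held 112.7 ± 22.3 transcripts per library, 27.0% of all members on that side, against 70.5 in the next 250 bases and 33.5 at 1751 to 2000 bases. The median distance was 817 to 905 bases past 3′ ends and 560 to 797 bases before 5′ ends. The first 250 bases also held the highest median FPKM of the members of each side, 0.359 past 3′ ends and 0.470 before 5′ ends.

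**Figure D2:**
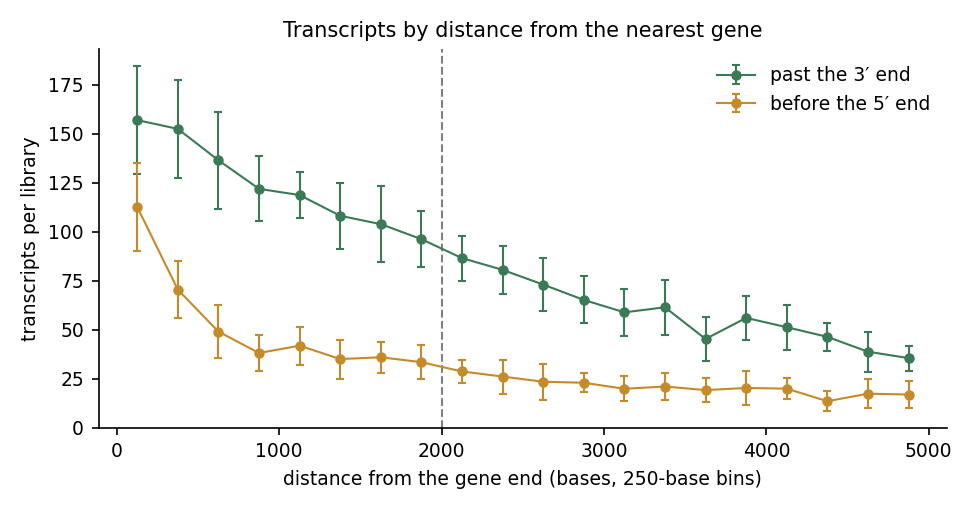
Mean number of transcripts per library (SD over 12 libraries) in bins of 250 bases by distance from the nearest gene span, out to 5000 bases, for both sides. The dashed line marks 2000 bases, the limit of the rule. Past 3′ ends the count falls from 157 in the first bin to 96.3 in the bin before the limit and 35.6 at 5000 bases, with no step at the limit. Before 5′ ends it falls from 112.7 to 33.5 in the bin before the limit.

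Both sides differed in splicing. Past 3′ ends, 98.2% ± 0.539 (SD, n = 12) of the transcripts had a single exon, against 87.0% ± 1.69 before 5′ ends and 95.3% ± 0.652 farther than 2000 bases from a gene. Each of these differences had the same sign in 12 of 12 libraries (exact sign-flip tests, adjusted p = 0.000879 for each of the 3 by Benjamini-Hochberg over 9 tests). The median FPKM of a library's transcripts was 0.350 ± 0.0485 past 3′ ends, 0.377 ± 0.0566 before 5′ ends and 0.325 ± 0.0459 farther away. Both near classes lay above the far class in 12 of 12 libraries (exact sign-flip tests, adjusted p = 0.000879 for each), and 5′ lay above 3′ in 10 of 12 (adjusted p = 0.00293, same exact test). The median length was 1057 ± 16.4 bases past 3′ ends and 1062 ± 26.4 bases farther away, a difference that missed the threshold (exact sign-flip test, adjusted p = 0.568). Before 5′ ends it was 1031 ± 36.2 bases, below both other classes (same exact test, adjusted p = 0.0113 against the far class and 0.0341 against 3′).

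Most members carried no strand in the files. Past 3′ ends, a library held a median of 253.5 transcripts on the strand of the gene, 39.5 on the opposite strand and 680 without strand. Before 5′ ends the medians were 71 on the same and 52.5 on the opposite strand. Spliced transcripts, whose strand follows from their introns, lay more often opposite to the gene before 5′ ends and on its strand past 3′ ends. A library held a median of 34.5 spliced transcripts (18 to 48) opposite to the gene before 5′ ends, against 21.5 (11 to 24) on its strand. Past 3′ ends the medians were 5.5 on the opposite and 11.5 on the same strand.

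The neighbours were mostly protein-coding genes. Of the 2911 genes with a region past the 3′ end, 89.6% were protein coding, against 69.3% of all 28224 annotated genes, and 7.80% were lncRNA genes against 19.2%. Of the 1182 genes with a region before the 5′ end, 83.5% were protein coding and 11.08% lncRNA genes. MicroRNA genes made up 17 of the 3′ neighbours and 14 of the 5′ neighbours, of 307 annotated. In a library, the neighbour was itself above 0 FPKM for 86.4 to 89.9% of the transcripts past a 3′ end. For transcripts before a 5′ end the share was 77.2 to 84.9%. Counted once per transcript, neighbours above 0 on the 3′ side had a median of 3.83 to 5.57 FPKM. The median over all genes above 0 was 3.22 to 3.79 FPKM, and over protein-coding genes above 0 it was 3.51 to 3.93 FPKM. Ratios were taken for transcripts of at least 200 bases whose gene was above 0 FPKM, and most of these were far below the gene. The median ratio of run-on to gene FPKM was 0.0704 to 0.101 past 3′ ends and 0.0797 to 0.126 before 5′ ends. The run-on transcript was the higher one in 3.89 to 8.43% and 5.06 to 11.15% of these pairs. Transcripts beside a gene at 0 FPKM are not among them.

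Genes with a higher level had run-on transcripts more often. This was counted in 8774 protein-coding genes with no other gene within 2000 bases. A value of 0 means that no FPKM was assigned to the gene, which does not show that it is silent. The contractile genes ACTA1, MYH1, MYH2 and MYH4 were at 0 in all 12 libraries of this muscle, and TTN in all L libraries. Of the genes at 0 FPKM, 0.981% ± 0.226 (SD, n = 12) had a transcript past the 3′ end. The share was 6.35% ± 0.815 up to 1 FPKM, 8.27% ± 1.04 from 1 to 10, 11.6% ± 1.13 from 10 to 100 and 14.2% ± 2.31 from 100 to 1000 FPKM. Above 1000 FPKM it was 17.6% ± 4.65, from 11 to 17 genes per library. Before 5′ ends the share ran from 0.387% at 0 FPKM to 5.89% from 100 to 1000 FPKM and 8.15% ± 6.10 above 1000 FPKM. Between the tiers above 0, the median level of the transcripts past the 3′ end stayed between 0.315 and 0.374 FPKM, while the genes ran from under 1 to above 1000 FPKM. On the 5′ side the medians were 0.332 FPKM for genes up to 1 FPKM, 0.415 from 1 to 10, 0.360 from 10 to 100, 0.442 from 100 to 1000 and 0.654 above 1000 FPKM.

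**Figure D3:**
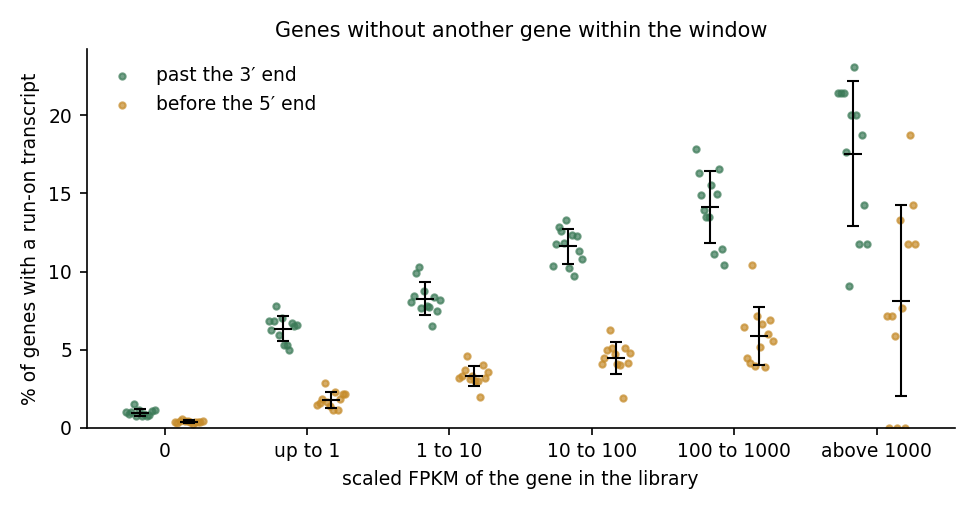
Share of the protein-coding genes without another gene within 2000 bases that had a run-on transcript, in percent, by the FPKM of the gene in that library, past the 3′ end and before the 5′ end. Points are the 12 libraries, with mean and SD. Past 3′ ends the mean share climbs from 0.981% for genes at 0 to 14.2% for genes at 100 to 1000 FPKM, and the top tier holds 11 to 17 genes per library.

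Few regions were assembled in all pigs. Past 3′ ends, 1174 of 3208 regions (36.6%) were found in 1 library, 702 (21.9%) in at least 6 and 51 (1.59%) in all 12. Before 5′ ends, 517 of 1291 regions (40.0%) were found in 1 library, 290 (22.5%) in at least 6 and 35 (2.71%) in all 12. Farther from genes, 218 of 5682 regions (3.84%) were found in all 12. The mean FPKM was taken over all 12 libraries, with 0 where a region was not found. It had a median of 0.0250 for regions past 3′ ends in 1 library and 0.796 for those in 12. The zeros by themselves lower this mean for regions found in few libraries.

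Some regions that were not found in a library were covered there by other transcripts. In 5384 of the 27469 cases in which a region past a 3′ end was not found in a library (19.6%), exons of other transcripts of that library covered at least 50% of it. For regions found in at least 6 libraries the share was 29.3%. It was higher in H than in L libraries, 36.2% against 22.8% past 3′ ends and 34.3% against 22.1% before 5′ ends, which was not tested. Counted as found or covered, 261 regions past 3′ ends and 108 before 5′ ends were present in all 12 libraries, and 708 and 328 in 1.

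**Figure D4:**
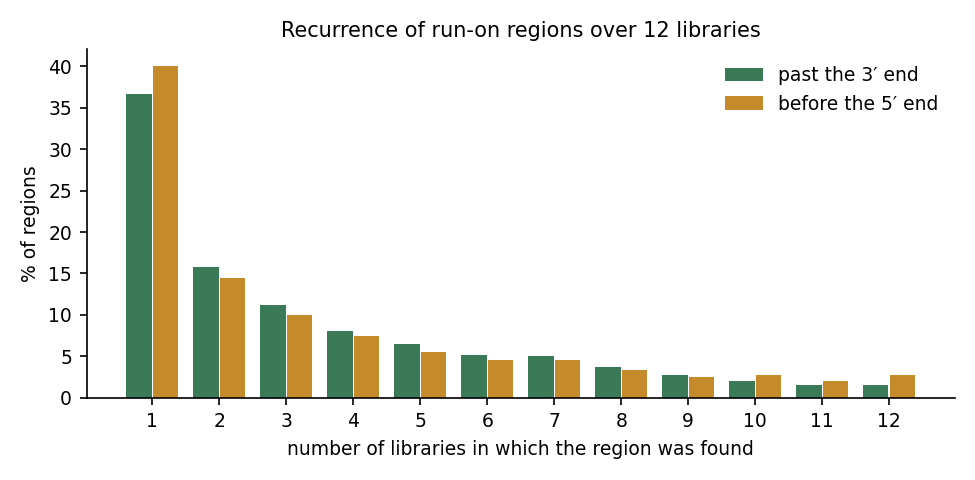
Share of the regions, in percent, by the number of libraries in which they were found, past the 3′ end and before the 5′ end of a gene. Of the regions past 3′ ends 36.6% and of those before 5′ ends 40.0% fall on 1 library, and 1.59% and 2.71% on all 12.

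The letters of the poly(A) signal were about as frequent on both strands of the regions past 3′ ends. AATAAA was present on the strand of the gene in 58.2% of the 3208 regions and on the opposite strand in 59.1%. It was present in 56.2% of the regions before 5′ ends and in 61.5% of those farther away. Regions found in at least 6 libraries are longer, and 75.5% of them held AATAAA on the strand of the gene against 76.6% on the other. Windows of equal length were taken from regions of at least 300 bases, as the 300 bases farthest from the gene on its strand. The shares were 26.4% past 3′ ends and 17.7% before 5′ ends. Farther away, where the last 300 bases of the plus strand were used, the share was 25.3%. The median content of G and C in all regions was 44.0% past 3′ ends, 47.2% before 5′ ends and 42.9% farther away. In the last 50 annotated bases of the gene itself, AATAAA was present in 50.6% of the protein-coding 3′ neighbours and 54.4% of the 5′ neighbours. The share was 51.0% of all 19560 protein-coding genes and 58.9% of those above 0 in at least 1 library. It was 42.2% of the 45 protein-coding 3′ neighbours with a region in all 12 libraries. Regions of which more than 50% is masked as repeat made up 25.3% past 3′ ends, 18.1% before 5′ ends and 31.0% farther away.

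Among single-exon regions found in all 12 libraries and at least 200 bases long in each, the highest past a 3′ end lay beside B2M, which encodes the light chain of MHC class I. Its transcripts, 398 to 1366 bases long and 13 to 62 bases past the gene, had 44.9, 115.7 and 155 FPKM (lowest, median and highest) in H and 78.3, 115.3 and 148 FPKM in L. The groups overlapped throughout. B2M is annotated in 2 near-identical copies on chromosome 1. The copy beside the region was listed at 0 in all 12 libraries, while the other had 34.9 to 89.3 FPKM, and how reads were divided between both is uncertain.

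The other high regions of at least 200 bases past 3′ ends differed in repeat content and in the level of the gene. The region 1066 to 1109 bases past C7H6orf222 is masked as repeat over 100% of its length and had 9.89 to 25.1 FPKM, while the gene was at 0 in all libraries. The region past LOC100517285, also 100% masked, had 1.99 to 7.46 FPKM with the gene between 0 and 0.438. That past C17H20orf196, which is 94.7% masked, had 1.12 to 3.23 FPKM, and that past the lncRNA gene LOC110259339 1.58 to 2.73 FPKM. Transcripts on the strand opposite to HRASLS, which encodes a phospholipase and acyltransferase, had 1.12 to 3.17 FPKM, while the gene had 17.1 to 35.8 FPKM. None of these regions had a smaller p than 0.05 between H and L.

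Of the 8 highest regions past 3′ ends of at least 200 bases, those of EBP and RFK had an unadjusted p under 0.05. EBP encodes a sterol isomerase of cholesterol synthesis. Its region, 123 to 297 bases past the gene, on its strand and 100% masked, had 5.68, 7.83 and 8.56 FPKM (lowest, median and highest) in H and 2.35, 4.62 and 7.42 FPKM in L, so that both groups overlapped. H minus L was 0.58 ± 0.22 (SE) on the log2(FPKM + 0.5) scale (limma, adjusted p = 0.613 by Benjamini-Hochberg), and for EBP itself it was 0.08. RFK encodes riboflavin kinase, which makes flavin mononucleotide. The region past it, 642 to 1532 bases long, had 2.03, 2.83 and 3.12 FPKM in H and 1.37, 1.83 and 2.35 FPKM in L, and only the ends of both ranges overlapped. H minus L was 0.45 ± 0.13 (SE) on that scale (limma, adjusted p = 0.560), while RFK itself had a difference of 0.01.

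Spliced regions past 3′ ends were low. Those beside TBCC, a tubulin folding cofactor, and ZSCAN4, a zinc finger gene of early embryos, were the highest found in all 12 libraries, with 0.260 to 1.38 and 0.348 to 0.791 FPKM and at most 2 exons. ZSCAN4 itself was at 0 in all libraries.

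Muscle genes at very high levels had run-on regions that were low and not found in every pig. TNNT3, the fast troponin T, had 4266 to 10218 FPKM, and the region past it, 755 to 1824 bases away, had 0 to 0.474 FPKM in H with 2 of 6 libraries above 0, and 0 to 0.904 FPKM in L with 5 of 6. H minus L was -0.79 ± 0.29 (SE) on the log2(FPKM + 0.5) scale (limma, adjusted p = 0.613). LDB3, a Z-disc protein, had 826 to 1763 FPKM and a region of 0 to 0.683 FPKM in 6 libraries. PYGM, the muscle glycogen phosphorylase, had 1623 to 4524 FPKM, and the region past its 3′ end had 0 to 0.626 FPKM in H and was found in 5 of 6 libraries there and in 1 of 6 in L, at 0.360 FPKM. The region before its 5′ end was found in 8 libraries and reached 27.6 FPKM in L6, from a short transcript. Before TPM2, a tropomyosin gene with 1437 to 5349 FPKM, the region had 0 to 2.94 FPKM.

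Genes of lipid synthesis, energy metabolism and 3′ end processing had regions near the limit of assembly. Past THRSP, a lipogenic regulator, transcripts had 0 to 0.736 FPKM in H and 0 to 1.11 FPKM in L, and in all 6 libraries without one other transcripts covered at least 50% of the region. Past ACACA, acetyl-CoA carboxylase, the values were 0 to 0.832 FPKM, past SDHA, a subunit of succinate dehydrogenase, 0 to 0.765 FPKM, and past the monocyte marker CD14 0 to 1.18 FPKM. Of the cleavage factors, PCF11 had 0 to 1.15 FPKM and CSTF1 0 to 0.717 FPKM past the 3′ end. Before SCAF4, which encodes a protein that prevents early polyadenylation, the values were 0 to 0.569 FPKM. All but THRSP stayed under the minimum for the fit. Before 5′ ends, the regions of GPI (glycolysis), HSPB8 and DNAJA1 (heat shock), JUND (immediate early), CIDEA (lipid droplets) and ATP5B (ATP synthase) were found in 6 to 8 libraries, with at most 0.934, 1.63, 0.386, 0.446, 0.315 and 0.602 FPKM, in that order.

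Before 5′ ends, the highest single-exon region of at least 200 bases in every library was the one 281 bases from GSTA4, a glutathione S-transferase gene, on the opposite strand. It had 18.7, 24.9 and 34.8 FPKM (lowest, median and highest) in H and 10.2, 14.2 and 32.7 FPKM in L. Both ranges overlapped, and L1 alone stood above 17.4 among the L libraries. H minus L was 0.67 ± 0.28 (SE) on the log2(FPKM + 0.5) scale (limma, adjusted p = 0.632), and GSTA4 itself, with 0.750 to 2.22 FPKM, had a difference of 0.22. In other mammals the gene of 7SK RNA, a small nuclear RNA made by RNA polymerase III that holds back the elongation factor P-TEFb, lies at this place, and the protein HEXIM binds 7SK at GAUC. The letters shown above hold GATC 3 times, as did 110 of 1261 regions before 5′ ends (8.72%) in windows of the same 295 bases facing the gene, and 55.7% held it at least once. 7SK is not annotated in this region, and the identity of the transcript was not tested.

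The region before PARP2, which encodes a DNA repair enzyme, also ran on the opposite strand, 131 to 137 bases away. It had 2.38, 3.08 and 4.76 FPKM in H and 0.782, 0.999 and 4.96 FPKM in L, where 5 of 6 libraries lay below every H library and L1 above all of them. H minus L was 1.01 ± 0.33 (SE) on that scale (limma, adjusted p = 0.579), against -0.20 for PARP2 itself. In human and mouse the gene of the RNA of RNase P, the enzyme that trims tRNA precursors, shares a promoter with PARP2. It is transcribed by RNA polymerase III and is not annotated here. The same 4 libraries, H2, H3, H5 and L1, were the highest for the region of GSTA4 (31.0 to 34.8 FPKM, next library 18.8), for that of PARP2 (3.57 to 4.96 FPKM, next 2.59) and for the share of coverage in the fragment before HEPN1 (0.198 to 0.335%, next 0.171%). The fragment before LOC110261700 was highest in H2, H5, L5 and H3, with L1 at 0.132% of the coverage. Poly(A) tails are not typical of 7SK, RNase P RNA or ribosomal RNA, but whether the regions named here are such RNAs was not tested. What H2, H3, H5 and L1 share was not tested either.

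Of the other high single-exon regions before 5′ ends, ANO2 alone had an unadjusted p under 0.05. PPP2R5E, a regulatory subunit of protein phosphatase 2A, had 2.02 to 5.56 FPKM before its 5′ end, MPV17L2, a gene of mitochondrial translation, 1.56 to 6.24 FPKM, and CTDP1, the phosphatase that resets the tail of RNA polymerase II, 2.92 to 4.75 FPKM. The values were 1.28 to 3.48 FPKM before DTYMK, thymidylate kinase, and 1.03 to 3.30 FPKM before ILKAP, a phosphatase of integrin signalling. The region before ANO2, a chloride channel gene that was itself at or near 0, is 100% masked and had 2.67, 3.07 and 3.58 FPKM in H and 2.25, 2.56 and 2.94 FPKM in L. H minus L was 0.23 ± 0.10 (SE; limma, adjusted p = 0.637 by Benjamini-Hochberg), and both groups overlapped.

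The spliced transcripts with the highest levels before a 5′ end, found in all 12 libraries, lay beside CSPP1, MIR206, NARS and CCDC82, and those of CSPP1 and NARS ran away from the gene across the CpG-rich gaps shown above. Before CSPP1, a centrosome gene with 0 to 8.79 FPKM, transcripts of up to 5 exons had 7.83 to 24.3 FPKM in H and 8.87 to 15.8 FPKM in L. Before NARS, the asparaginyl-tRNA synthetase with 14.2 to 25.1 FPKM, they had 7.28 to 9.07 FPKM in H and 5.12 to 8.71 FPKM in L. Before CCDC82 the range was 1.22 to 1.59 FPKM, the narrowest of the 4. The fourth lay on the same strand as MIR206, with 4.36, 10.1 and 25.6 FPKM in H and 5.82, 8.17 and 19.7 FPKM in L. MicroRNA-206 is specific to skeletal muscle, and in mouse and human it is made from a longer spliced noncoding RNA, linc-MD1. None of these 4 had an unadjusted p under 0.05.

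A few fragments under 200 bases held nearly all of the coverage of the members. There were 104 regions with such transcripts, 18 to 32 transcripts per library past 3′ ends and 7 to 11 before 5′ ends. The fragment 1925 bases past MFAP5, a gene of elastic microfibrils, is 63 bases long with 42 T in a row, and held 1.77 to 5.81% of the coverage of a library in H and 3.92 to 7.86% in L. The fragment before LOC110261700, with 22 A in a row, held 0.0606 to 0.383% of it, and the one before HEPN1 0.0421 to 0.335%. The letters of the HEPN1 fragment, read on the other strand, are those with which the RNA of the small ribosomal subunit begins. These 3 fragments were singled out after their values were seen. Without transcripts under 200 bases, the members past 3′ ends held 0.0388 to 0.0814% of the coverage of a library and those before 5′ ends 0.0273 to 0.0734%.

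**Figure D5:**
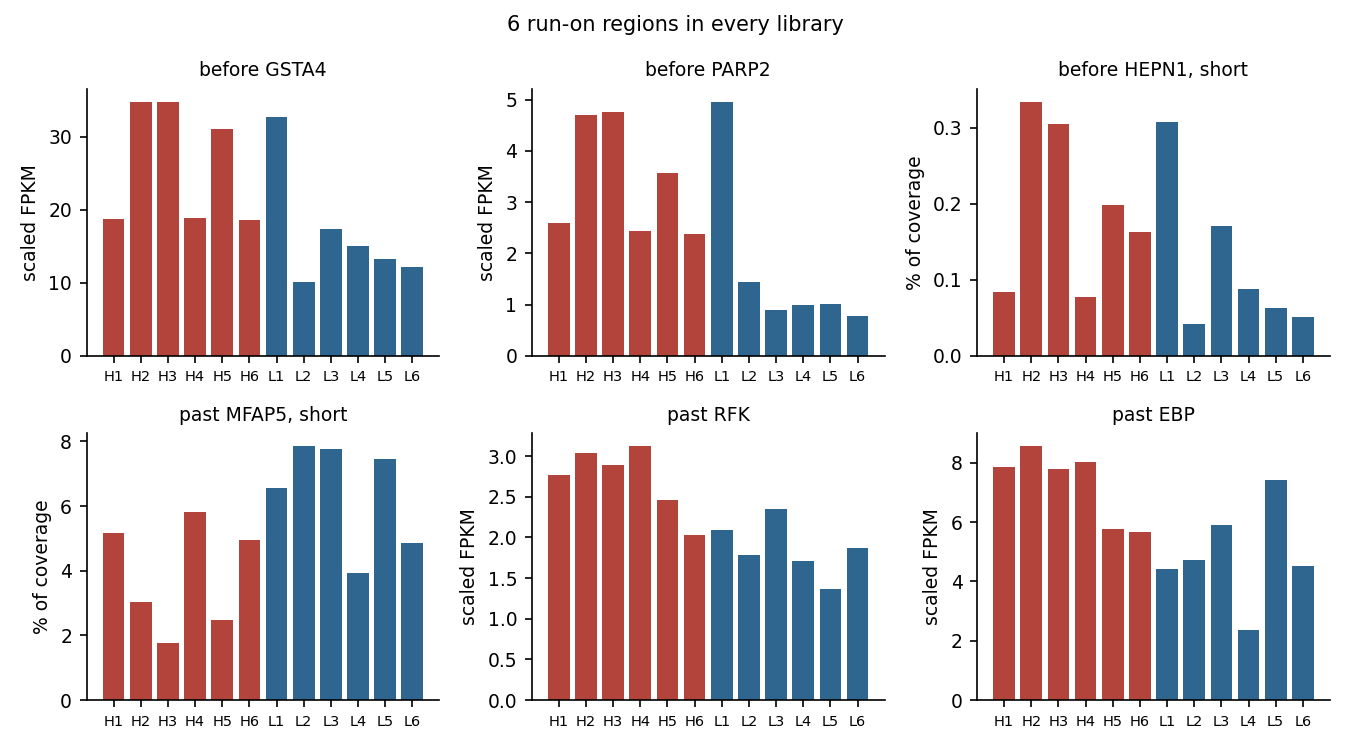
Values of 6 members in each of the 12 libraries, H in red and L in blue. The panels show FPKM for the regions before GSTA4, before PARP2, past RFK and past EBP, and the share of the library's coverage in percent for the fragments under 200 bases before HEPN1 and past MFAP5. H2, H3, H5 and L1 are the highest for GSTA4, PARP2 and HEPN1, and L1, L2, L3 and L5 for MFAP5.

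The numbers of run-on transcripts were higher on average in H, but the differences missed the threshold of 0.05 after adjustment. Past 3′ ends, H libraries held 970, 989, 1181, 1284, 873 and 1110 transcripts and L libraries 899, 922, 763, 997, 951 and 1001, in the order of the pig numbers. The means were 1067.8 ± 151.7 and 922.2 ± 87.8 (SD, n = 6 each; two-sided exact permutation test, p = 0.0779, adjusted p = 0.195 over 5 tests). Without H4 and L3 the difference went from 145.7 to 70.6 (adjusted p = 0.714, same exact test). Before 5′ ends the means were 452.7 ± 76.0 and 381.2 ± 69.0 (exact permutation test, p = 0.121, adjusted p = 0.202), and without H4 and L3 the difference went from 71.5 to 20.2 (adjusted p = 0.741, same exact test). As a share of all transcripts of the library, members past 3′ ends made up 2.78% ± 0.221 in H and 2.71% ± 0.119 in L, and those before 5′ ends 1.18% ± 0.105 and 1.11% ± 0.151 (n = 6 each, exact permutation tests, adjusted p = 0.478 for both). Without H4 and L3 the differences in these shares went from 0.0755 to 0.0129 percentage points past 3′ ends and from 0.0631 to -0.0195 before 5′ ends. The libraries themselves held a median of 38010 transcripts on chromosomes in H and 34664 in L.

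The share of coverage in transcripts past 3′ ends was 4.12% ± 1.64 in H and 6.52% ± 1.65 in L (SD, n = 6 each; exact permutation test, p = 0.0303, adjusted p = 0.152). It had a lowest, median and highest value of 2.15, 4.27 and 6.12% in H and 4.07, 7.16 and 7.94% in L. The fragment past MFAP5 held 3.87% ± 1.65 and 6.40% ± 1.65 of the coverage, so nearly all of both. These members covered 1086 to 1812 kilobases per library at a mean coverage of 157 to 1017, and of 4.98 to 7.12 without transcripts under 200 bases.

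No region passed the test between H and L. Of the 4499 regions, 492 had a mean of at least 0.5 FPKM in a group, and limma called 0 of them at an adjusted p under 0.1, beside 0.00732% of the 13667 genes and regions tested in 1 fit (1 feature). At an unadjusted p under 0.05 there were 56, of which 34 were higher in H (6.91% of the regions against a background of 4.19%) and 22 lower (4.47% against 3.43%). With quantile normalization there were 26 higher and 26 lower, without L2 23 and 25, and without L3 23 and 23. By side these were 36 of 329 regions past 3′ ends (10.9%) and 20 of 163 before 5′ ends (12.3%), against 7.62% of the whole table, 7.14% of annotated genes and 13% of the regions farther than 2000 bases from a gene. The median difference was 0.16 past 3′ ends and 0.13 before 5′ ends, against 0.01 over the whole table. The smallest adjusted p was 0.557. A minimum that a region can pass through the group in which it is high favours regions that differ, so that these counts cover the regions that passed it and not all members.

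The regions with the smallest p that were higher in H lay past SEC61B, NKAP, BST1 and RFK, and before PARP2, THNSL2, LOC110255585 and LOC100739755. SEC61B encodes a subunit of the channel that takes proteins into the endoplasmic reticulum. The region past it was found in 5 of 6 H libraries, at 0.437 to 0.837 FPKM, and in 0 of 6 L libraries (difference 0.95 ± 0.24, SE; limma, adjusted p = 0.557), and in no L library did another transcript touch it. The gene itself had 6.82 to 16.2 FPKM in H and 13.3 to 23.8 FPKM in L. Past NKAP, a transcriptional repressor, H had 0.278 to 1.08 FPKM and L 0 to 0.317 (0.97, adjusted p = 0.557 by limma). Past BST1, an ectoenzyme that cleaves NAD, H had 0.407 to 1.05 and L 0 to 0.461 FPKM (0.80, adjusted p = 0.560 by limma). Before THNSL2 transcripts were found in 4 of 6 H and 0 of 6 L libraries, at up to 2.63 FPKM (1.36, adjusted p = 0.568 by limma). Both H libraries without one had other transcripts across 78.0 and 99.2% of that region, while those of the L libraries covered 5.44 to 6.29% of it. LOC110255585 and LOC100739755 had differences of 0.75 and 0.90 (limma, adjusted p = 0.568 and 0.560).

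The regions with the smallest p that were lower in H lay past TMCC2, ABCA5, TRMT1L and BTG2, and before LOC106504538, KIF13A, NR4A1 and CNKSR2. Past TMCC2, H had 1.197, 11.5 and 41.2 FPKM and L 32.1, 38.8 and 56.0 FPKM (difference -2.05 ± 0.74, SE; limma, adjusted p = 0.609). This region holds transcripts of 119 to 342 bases, and without those under 200 bases the difference was 1.30. ABCA5, a lipid transporter, had a transcript past its 3′ end in 1 of 6 H and 5 of 6 L libraries (-0.84, adjusted p = 0.578 by limma), but in 3 of the 5 H libraries without one other transcripts covered at least 50% of the region. Past TRMT1L transcripts of 4627 to 7655 bases were found in 4 L libraries, at 0.713 to 0.964 FPKM, and in 0 of 6 H libraries (-0.93, adjusted p = 0.579 by limma). BTG2, an antiproliferative immediate early gene, had 0 to 0.449 FPKM past its 3′ end in H and 0 to 1.14 FPKM in L (-0.85, adjusted p = 0.613 by limma), while the gene itself had a difference of -0.96. Before NR4A1, annotated here as a pseudogene and known as an immediate early nuclear receptor, transcripts were found in 0 of 6 H and 3 of 6 L libraries (-1.76, adjusted p = 0.632 by limma). Before the kinesin gene KIF13A the difference was -1.48 (limma, adjusted p = 0.621). In all 4 H libraries and the L library without a member, transcripts that overlapped KIF13A covered at least 73.8% of the region. The highest of these in each library had 4.36 to 9.004 FPKM before scaling. LOC106504538 and CNKSR2 had differences of -2.15 and -0.998 (limma, adjusted p = 0.614 and 0.609).

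Regions found in every library of 1 group and none of the other were KPTN and ZNF35, which were chosen after their values were seen. Such a pattern was found in 0.0198% of 25200 genes and regions. Past KPTN, a regulator of mTORC1, H had 0.374, 0.442 and 0.513 FPKM and L 0 in all 6 libraries. With no minimum FPKM, the setting in which it could be tested, the difference was 0.91 (limma, adjusted p = 0.00353), and KPTN itself had 4.66 to 7.28 FPKM in H and 3.45 to 5.28 FPKM in L. In 2 of the 6 L libraries other transcripts covered 54.5 and 54.7% of the region, and in 4 of 6 at least part of it. Before scaling, the highest of these transcripts had 0.331 FPKM in L2, 1.55 in L3, 0.244 in L4 and 0.312 in L6. In L3 they overlapped KPTN itself, and in L1 and L5 no transcript touched the region. The 0 values of L therefore do not show that RNA was absent there. Past the zinc finger gene ZNF35, H had 0 in all 6 libraries and L 0.319, 0.332 and 0.603 FPKM (-0.80, adjusted p = 0.0277 by limma with no minimum). In all 6 H libraries a transcript that overlapped ZNF35 covered 68.5 to 100% of the region, at 0.337 to 0.540 FPKM before scaling.

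Of the 492 regions tested, 1 had no overlap between H and L, against 0.563% of the whole table. It lay past IGFBP4, a binding protein of insulin-like growth factors, and was named after its values were seen. H had 0.423, 0.505 and 0.785 FPKM and L 0, 0.328 and 0.422 FPKM. The difference was 0.43 ± 0.19 (SE; limma, adjusted p = 0.644).

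Across libraries, the level of a region was correlated with that of its own gene above 0.5 in 4 of 35 cases past 3′ ends and 2 of 23 before 5′ ends. These cases are the regions found in all 12 libraries whose gene was also above 0 in all 12. Their median correlation was 0.12 past 3′ ends (-0.36 to 0.71) and 0.12 before 5′ ends (-0.67 to 0.68). It was below 0 in 11 of 35 and 11 of 23 cases. These points share libraries and their scaling, so the values are a description.

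Run-on regions were present beside genes of most lists. In all, 10.3% of the annotated genes and 18.2% of the protein-coding genes above 0 in at least 1 library had a region past the 3′ end, and 2.45% and 4.36% had one in at least 6 libraries. Before the 5′ end the shares were 4.19% and 6.84% in at least 1 library and 1.02% and 1.71% in at least 6. Past the 3′ end, 10 of 20 heat shock genes had a region, HSPB1 and DNAJB1 in 4 libraries each, and 0 in at least 6 libraries. Before the 5′ end, 6 of these 20 had one, of which 2 in at least 6 libraries. Past the 3′ end again, 11 of 28 genes of lipid synthesis and storage had one, ACACA and THRSP in 6 libraries and LPIN1 and PLIN2 in 5. Of 35 contractile genes 8 had one, of 23 mitochondrial energy genes 6, of 32 ribosomal and translation genes 6, of 31 immediate early genes 6, of 20 myogenic and atrophy regulators 6, of 20 genes of glycolysis and creatine kinase 4 and of 16 calcium handling genes 4. Of 32 genes of 3′ end processing, 6 had one, namely CPSF2, CSTF1, CSTF3, PCF11, PAPOLA and CDC73.

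Of the 32 genes of 3′ end processing tested, limma called 0, with 1 higher and 1 lower in H at an unadjusted p under 0.05, and the list's median difference was -0.08 against 0.01 over the whole table. SYMPK, the scaffold protein symplekin, had 9.03 ± 0.933 FPKM in H and 11.2 ± 1.36 in L (-0.29 ± 0.11, SE; limma, adjusted p = 0.621). Among the smallest p were also those of SCAF8 (-0.33) and RPRD1A (-0.27), with limma's adjusted p of 0.655 and 0.719.

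Markers of other cell types and immediate early genes are given beside these results, in which their part was not tested. Skeletal muscle markers summed to 34403 to 51659 FPKM in H and 33162 to 45621 in L, with 1 of 11 at 0 in all libraries. Adipocyte markers summed to 108 to 215 FPKM in H and 79.6 to 132 in L, with 3 of 11 tested higher in H and 0 lower at an unadjusted p under 0.05 and a median difference of 0.71. Of 5 erythroid markers tested 3 were higher at that p (sum 88.1 to 302 FPKM in H, 74.8 to 162 in L), and of 13 endothelial and mural markers 3 (155 to 274 in H, 111 to 250 in L). Of 12 markers of macrophages and lymphocytes and 14 of fibroblasts and matrix 0 had such a p. Of 31 immediate early genes, 13 were lower in H at an unadjusted p under 0.05 and 0 higher, with a median difference of -0.70 and a sum of 261 to 699 FPKM in H and 479 to 1499 in L. The background in annotated genes was 3.84% higher and 3.3% lower, and limma called 0 genes of any list at an adjusted p under 0.1. Past a 3′ end, 1 of 12 adipocyte, 0 of 8 erythroid, 0 of 14 endothelial, 4 of 16 macrophage and lymphocyte, 4 of 15 fibroblast and 1 of 11 skeletal muscle markers had a region.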

How the data were processed

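The authors sequenced paired 76-base reads, 4 libraries per lane, trimmed adaptors and A or T tails with Trim Galore, mapped to Sscrofa11.1 with TopHat2 2.1.0 guided by Ensembl genes and ran Cufflinks 2.2.1 on 1 library at a time. In the deposited files transcripts and exons carry FPKM and coverage inside an attribute column. They hold no read counts, so no count test was run. Transcripts on scaffolds and the mitochondrial genome, 1.25 to 1.58% of a library's, were left out.

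Here the RefSeq annotation of Sscrofa11.1 was used (28224 genes and pseudogenes on chromosomes 1 to 18, X and Y). Whether Ensembl genes cover a region was not analysed here. A transcript near more than 1 gene went to the nearest, and on a tie to the gene whose 3′ end it faced. Gene values are sums of FPKM of transcripts assigned by strand and shared exonic bases, or 50% overlap where unstranded. Values were scaled by median ratios over 10470 genes and tested on log2(FPKM + 0.5) with limma 3.58.1 (R 4.3.3). The test was two-sided, allowed the variance to follow the mean and was adjusted over 13667 features by Benjamini-Hochberg, with a threshold of 0.1. Fold changes on this scale understate those of low features. Exact permutation tests used all 924 arrangements of 6 against 6 (smallest p 0.0022), and sign-flip tests all 4096 flips, with a threshold of 0.05. Tested on simulated data for this comparison over 13667 features, the fit found 74 of 100 features with a true log2 difference of 1.2 and 86 of 100 with one of 2, and made 28 false calls. The changed features had a mean level above about 1 FPKM, and values were drawn from normal distributions, without any set to 0. Of the 492 regions tested, 247 reached a mean of 1 FPKM in a group. The simulation therefore does not show how often a changed run-on region would be found.

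Members and gene lists were chosen with earlier results of these data known. Regions were named as, per side, the 8 highest single-exon regions at least 200 bases long in every library and the 4 highest spliced regions, all found in 12 libraries, the 4 with the smallest p in each direction, and the 2 highest per gene list found in at least 6 libraries. Of the genes of 3′ end processing, the 4 with the smallest p were named. A few items that these rules name are not reported here. Alternatives changed the window, pseudocount, minimum FPKM, scaling, variance trend, short transcripts, coverage in place of FPKM and the libraries used. Pig numbers do not pair the samples, with correlations of -0.0850 to 0.0689 between same-numbered pigs. Pigs are separate animals, and slaughter batch was not used.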

Additional observations from a re-analysis of the deposited data

Results flagged for a closer look

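Of 134 groups of 6 libraries, 16 held a library far from the other 5, by Dixon's gap against the range. Chance flags about 1 in 20 groups. Past 3′ ends, the median transcript length of H1 was 1076 bases (others 1045 to 1054). The region past PYGM had 0.360 FPKM in L1 and that past ABCA5 0.339 FPKM in H1, with the others of the group at 0. That past CD14 had 1.18 FPKM in L2 (others up to 0.373), that past PCF11 1.15 FPKM in H5 (others up to 0.359) and 0.667 FPKM in L4 (others up to 0.191), and that past ZSCAN4 0.791 FPKM in L3 (others 0.348 to 0.4995).

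Before 5′ ends, L1 stood above the other L libraries for GSTA4, with 32.7 FPKM (others 10.2 to 17.4), and for PARP2, with 4.96 FPKM (others 0.782 to 1.44). L3 stood below them for PPP2R5E, with 2.02 FPKM (others 4.13 to 5.39), and for NARS, with 5.12 FPKM (others 8.16 to 8.71). The region before PYGM had 8.82 FPKM in H4 (others up to 1.201) and 27.6 FPKM in L6 (others up to 0.985). LOC106504538 had 19.8 FPKM in L2 (others 3.57 to 7.47). LOC100739755 had 0.147 FPKM in L4 and CNKSR2 0.933 FPKM in H2, with the others of the group at 0. No cause was tested for any of these.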

How the results depend on the processing

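The excess of transcripts past 3′ ends over those before 5′ ends kept its sign and its side of the threshold under every alternative run. The difference in the share of coverage past 3′ ends, H minus L, turned from -2.40 to 0.00852 percentage points without transcripts under 200 bases, to 0.0100 in a window of 1000 bases, and to 7.11 in a window of 5000 bases. Both the shorter window and the length limit leave out the fragment past MFAP5 (1925 bases away). The wider one takes in transcripts of 47 to 338 bases that lie 2042 to 2332 bases past SLA-2 and held 12.998 to 28.3% of the coverage in H and 0.00175 to 18.7% in L. The difference in the share of transcripts before 5′ ends, 0.0631 percentage points, was -0.0195 without H4 and L3, for which the cause was not tested. The difference in median length between transcripts past 3′ ends and those farther away was 0.125 bases without transcripts under 200 bases, an alternative chosen after seeing the data, and TMCC2 had 1.30 without them. With no minimum FPKM, limma called 2 regions (KPTN and ZNF35) and 242 had an unadjusted p under 0.05. A minimum of 1 FPKM left 27, since fewer regions were tested. AATAAA or ATTAAA was present in 70.3% of the regions past 3′ ends, and AATAAA in the last 300 bases in 25.8%.

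Leaving out 1 library at a time, the differences H minus L ran from 102.4 to 184.6 transcripts past 3′ ends, 44.6 to 85.8 before 5′ ends, 0.0173 to 0.128 and 0.0122 to 0.0959 percentage points in their shares, and -2.89 to -2.01 percentage points in the share of coverage. The difference between both sides ran from 567.3 to 585.9 transcripts, limma called 0 regions and 41 to 58 had an unadjusted p under 0.05. With the pig numbers as a replicate block, the difference was 145.7 transcripts past 3′ ends (exact sign-flip test, adjusted p = 0.313), 48 regions had an unadjusted p under 0.05 and limma called 0. Divided by depth (coverage per FPKM), the numbers of both sides had an adjusted p of 0.0505 (exact permutation test), just above the threshold of 0.05 and the lowest of any alternative for these numbers. All other alternatives kept the direction and the side of the threshold. Thin coverage (median about 3 reads per base) limits which regions are assembled at all.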
